A study of Mus musculus with 4 samples.

Results

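The 10 genes described here make and load the MHC class II molecule. They were taken by name, and all 10 were found among the 32285 genes counted. They are H2-Aa, H2-Ab1 and H2-Eb1, which encode chains of the class II molecules I-A and I-E, Cd74, which encodes the invariant chain, H2-DMa, H2-DMb1 and H2-DMb2, which encode chains of H2-DM, H2-Oa and H2-Ob, which encode the chains of H2-O, and Ciita, which encodes the class II transactivator. Their transcripts were counted in CD45+ cells sorted, with a viability stain, from orthotopic tumors of EO771, a mouse mammary carcinoma cell line. The tumors came from 2 female Csf1rfl/fl mice and 2 female Lyve1CreCsf1rfl/fl mice, whose ages are not given in the sources used here. The paper states that the model is kept on a C57BL background. Only transcripts were counted, so whether these mice make the I-E molecule was not tested. In Lyve1CreCsf1rfl/fl mice, Cre under control of Lyve1 deletes Csf1r, a receptor that macrophages need to survive, in cells that express LYVE-1, so the model is meant to lack LYVE-1+ macrophages. The control mice carried the same floxed Csf1r alleles without Cre. Cells of 1 tumor per genotype were pooled for each of the 2 Chromium runs, and hashtag antibodies told the tumors apart.

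MHC class II molecules present peptides from endocytosed proteins to CD4+ T cells, and dendritic cells, B cells and activated macrophages are known to carry them. An α and a β chain assemble on the invariant chain, H2-DM later exchanges the remaining invariant chain peptide for other peptides, and H2-O restrains H2-DM. Ciita does not bind DNA itself. It acts as a coactivator on RFX, CREB and NF-Y factors that sit on the X and Y boxes of class II gene promoters. Interferon-γ is a known inducer of Ciita in macrophages.

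In the mm10 annotation GENCODE vM21, the 8 genes with an H2 symbol lie within the MHC of chromosome 17, from H2-Oa at chr17:34092340-34095234 to H2-Eb1 at chr17:34305867-34316674. Ciita lies at chr16:10480059-10528418. The genes H2-DMb1 at chr17:34153072-34160230 and H2-DMb2 at chr17:34143307-34151555 are neighbors with similar sequences, so reads may have been split between them and their separate values are uncertain.

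Of the 10 genes, 7 matched an entry among the RefSeq promoter sequences of GRCm38.p6, which cover 250 bases before to 50 bases after a start site. No entry was matched for H2-Ab1, Cd74 and Ciita. All 7 held the letters GATTGG, the core of a Y box, on the strand of the gene (H2-DMa in 1 of its 2 entries), against 8.71% of the 32851 promoters. GNAAC, which opens an X box, stood 15 to 30 bases before GATTGG on the same strand in 5 of the 7, namely H2-Aa, H2-Eb1, H2-DMb1, H2-Oa and H2-Ob. On either strand, 0.944% of all promoters held this pair, and 16.1% held GATTGG. The motifs do not overlap. The stretches below come from 4 of these promoters, and capitals mark GNAAC and GATTGG. They lie at chr17:34287867-34287912 on the minus strand, and on the plus strand at chr17:34305768-34305812, chr17:34238810-34238852 and chr17:34145120-34145163, in this order.
H2-Aa: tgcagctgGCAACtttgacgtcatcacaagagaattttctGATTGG
H2-Eb1: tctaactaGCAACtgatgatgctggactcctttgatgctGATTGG
H2-Ob: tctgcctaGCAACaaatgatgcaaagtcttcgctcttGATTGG
H2-DMb2: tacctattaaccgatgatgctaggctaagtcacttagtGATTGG
GATTGG lay 49, 60, 58 and 91 bases before the start site in these 4 promoters. In the H2-DMb2 window the letters GNAAC were not found at this distance, which says only that these letters are not there.

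Values were computed for the 28429 cells that the authors kept, 53.3% of the 53361 barcodes. The 4 tumors gave 8699 and 7786 cells in Csf1rfl/fl (runs 1 and 2) and 7173 and 4771 in Lyve1CreCsf1rfl/fl, with a median of 3721 to 4657 UMIs per cell. Csf1r, the deleted gene, was at 1.47 and 2.18 UMIs per 10000 of the C1q macrophage gate in Csf1rfl/fl and at 1.40 and 1.24 in Lyve1CreCsf1rfl/fl, and this gate held 2, 1, 0 and 0 Lyve1 UMIs in the 4 tumors. In the monocyte gate Csf1r was at 2.001 and 2.19 in Csf1rfl/fl and at 1.31 and 1.32 in Lyve1CreCsf1rfl/fl. It was thus lower there in both runs, without overlap. In the Arg1 macrophage gate it was at 1.48 and 1.44 against 1.36 and 2.39, where the groups overlapped. A 3′ tag may lie outside the deleted part of a gene, so these values do not check the genotype. Scrublet called 21.3% and 12.8% of the kept cells of runs 1 and 2 doublets. These shares were 25.5% and 12.5% in Csf1rfl/fl and 16.2% and 13.2% in Lyve1CreCsf1rfl/fl. In the same order, 6.82%, 0.218%, 1.41% and 0.293% of cells had a higher hashtag under 3 times the lower. Of the kept barcode sequences, 60 occurred in both runs. Each cell was placed in a cell type gate by 8 lineage markers per gate, with none of the 10 genes among them, and 25950 cells (91.3%) fell in a gate. For 16.3% of the kept cells, the lead of the best gate over the next lay within 0.05 of the minimum. Of 36 further markers not used for the gates, 28 were highest in the gate they belong to. The gates were neutrophil (6221 cells), monocyte (6109), C1q macrophage (1190), Arg1 macrophage (184), cDC2 (365), cDC1 (408), mature DC (1701), pDC (571), B cell (151), NK cell (1888), T cell (6980) and stromal or tumor cell (182). cDC1 and cDC2 are the conventional dendritic cells of type 1 and 2. Mature DC are Ccr7+ Fscn1+ dendritic cells, and pDC are plasmacytoid dendritic cells. Of the 365 cDC2, 139 (38.1%) had a lead this close to the minimum, and 132 passed a stricter gate. Such leads were at 28.3% in Arg1 macrophages and 4.68% in neutrophils. The monocyte markers averaged 33.3 UMIs per 10000 over cDC2, 18.8 over cDC1, 7.23 over mature DC and 106 over monocytes. The T cell gate was split into 3167 CD8 T cells, 1504 regulatory T cells with a Foxp3 UMI and 2309 other T cells. Only 1 of the 8 markers of the stromal or tumor cell gate was among its 10 leading genes, so that name rests on few genes. Of the 151 B cells, 123 came from the Lyve1CreCsf1rfl/fl tumor of run 2 and 7 to 12 from each other tumor, so the B cell values rest on few cells.

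Levels are UMIs of a gene per 10000 UMIs of the gate in each tumor, and means are over the 4 tumors with the SD or the range of tumors. Because 1 tag is counted at the 3′ end of a transcript, no value was scaled by gene length, and levels of different genes are compared only as ratios between gates. The order of the gates is a description and was not tested, since the gates were cut from the same cells. Overlap is stated of the ranges over tumors alone. Since every gate was read in the same 4 tumors, a gate could be the higher one in each tumor while the ranges overlapped.

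Among the kept cells, the classical class II chains and the invariant chain were highest in cDC2, followed by cDC1 and mature DC. Cd74 was at 119, 119, 132 and 112 UMIs per 10000 in cDC2 of the Csf1rfl/fl tumors of runs 1 and 2 and the Lyve1CreCsf1rfl/fl tumors of runs 1 and 2. Values per tumor are given in this order throughout. In cDC1 it was at 91.6, 100.1, 107.4 and 88.6, below cDC2 in every tumor and with no overlap of the ranges. In mature DC it reached 59.98, 57.5, 60.9 and 48.4, which again did not overlap with cDC1. B cells (42.0 ± 16.4, mean ± SD, n = 4), C1q macrophages (38.4 ± 13.3), monocytes (36.1 ± 6.65), Arg1 macrophages (25.8 ± 6.73) and pDC (23.8 ± 1.86) followed, each overlapping with the next. The range of B cells also overlapped with that of mature DC, although mature DC were above the kept B cells in all 4 tumors. Monocytes and pDC did not overlap. In B cell-gated barcodes with a clear hashtag that the authors did not keep, Cd74 was at 74.0, 45.6, 70.0 and 66.4. These values were above mature DC except in the Csf1rfl/fl tumor of run 2. Neutrophils were at 10.4 and T cells at 7.74, with overlapping ranges, and NK cells at 3.01 and stromal or tumor cells at 0.420 were lower without overlap.

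H2-Aa, the α chain of I-A, was at 60.8, 57.4, 59.3 and 54.9 in cDC2. It was lower in cDC1, with 41.8 to 47.1, and in mature DC, with 32.1 to 40.0, and these 3 ranges did not overlap. C1q macrophages and monocytes shared a level, with means of 15.1 and 14.1 and overlapping ranges. H2-Ab1, the β chain of I-A, was at 66.7 ± 7.96 in cDC2 and 56.2 ± 4.96 in cDC1, where the ranges overlapped but cDC2 was above cDC1 in all 4 tumors, and at 21.3 ± 3.06 in mature DC, whose range overlapped with that of C1q macrophages at 16.8 ± 7.05. H2-Eb1, the β chain of I-E, was at 57.4 ± 10.02 in cDC2, 47.5 ± 6.17 in cDC1 and 38.7 ± 7.91 in mature DC, with overlap between each pair of neighbors, although cDC2 was above cDC1 and cDC1 above mature DC in all 4 tumors. The 10 genes together took 3.23% of the UMIs of cDC2, 2.58% of cDC1 and 1.58% of mature DC, against 0.901% of C1q macrophages and 0.0772% of NK cells. Between 89.5% and 97.2% of these UMIs came from Cd74, H2-Aa, H2-Ab1 and H2-Eb1, except in the stromal or tumor cell gate, with 78.2%.

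**Figure D1:**
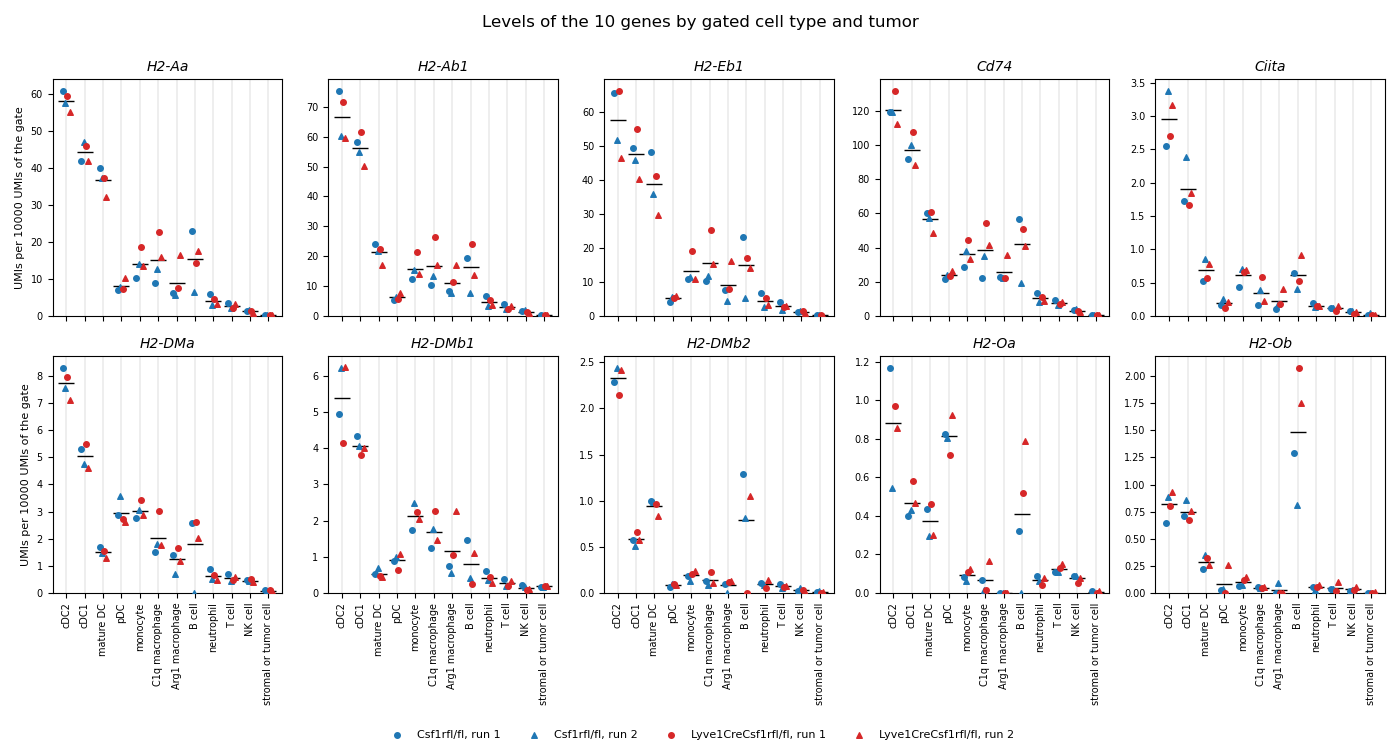
Levels of the 10 genes, in UMIs per 10000 UMIs of a gate on the y axis of each panel, by gated cell type on the x axis. Points are tumors (blue Csf1rfl/fl, red Lyve1CreCsf1rfl/fl, circles run 1, triangles run 2), and bars are means over the 4 tumors. Among the kept cells shown, cDC2 had the highest mean for 9 of the genes, and B cells for H2-Ob.

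Ciita, which the class II promoters require, followed a similar order at a low count. It was at 2.55, 3.38, 2.70 and 3.17 UMIs per 10000 in cDC2 and at 1.72, 2.39, 1.67 and 1.84 in cDC1, and these ranges did not overlap. Mature DC (0.685 ± 0.160), B cells (0.621 ± 0.217) and monocytes (0.621 ± 0.130) had overlapping ranges, although the H2-Aa ranges of mature DC and monocytes did not overlap. In C1q macrophages Ciita was at 0.162, 0.389, 0.582 and 0.219, a range that overlapped with that of monocytes, although monocytes were above it in all 4 tumors. In pDC it was at 0.193 ± 0.0584 and in NK cells at 0.0605 ± 0.0180. For Ciita, Cd74, H2-Aa, H2-Ab1 and H2-Eb1 alike, neutrophils were above T cells in all 4 tumors although the ranges overlapped.

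H2-DM, which exchanges peptides on class II molecules, was again highest in cDC2. H2-DMa, its α chain, was at 8.31, 7.57, 7.95 and 7.11 in cDC2 and at 4.59 to 5.49 in cDC1, without overlap. Monocytes at 3.03 ± 0.299 and pDC at 2.96 ± 0.435 came next, and mature DC were at 1.50 ± 0.173. H2-DMb1, a β chain, was at 5.40 ± 1.02 in cDC2 and 4.05 ± 0.216 in cDC1, with overlapping ranges but higher in cDC2 in all 4 tumors, followed by monocytes at 2.12 ± 0.311, C1q macrophages at 1.69 ± 0.447, and mature DC at 0.535 ± 0.105. H2-DMb2, the other β chain, had another order. It was at 2.29, 2.44, 2.15 and 2.42 in cDC2, then at 0.994, 0.988, 0.962 and 0.839 in mature DC and at 0.576, 0.503, 0.664 and 0.572 in cDC1, so mature DC exceeded cDC1 in all 4 tumors. In monocytes it was at 0.190 ± 0.043. The kept B cells ranged from 0 to 1.29. B cell-gated barcodes that the authors did not keep had H2-DMb2 at 2.57, 1.31, 1.76 and 2.79.

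H2-O, the inhibitor of H2-DM, was measured at low counts, and its chains did not follow the same order of gates. H2-Oa, the α chain, was at 1.17, 0.544, 0.967 and 0.853 in cDC2 and at 0.823, 0.802, 0.717 and 0.922 in pDC, with overlapping ranges, and without doublets pDC had the higher mean. In cDC1 it was at 0.468 ± 0.0795 and in mature DC at 0.373 ± 0.0893. The kept B cells had a mean of 0.408 and a range of 0 to 0.788. B cell-gated barcodes that the authors did not keep had H2-Oa at 1.81, 0.784, 1.55 and 2.03, above cDC2 in every tumor. T cells had 0.124 ± 0.0181 and monocytes 0.0932 ± 0.0266. In Arg1 macrophages no H2-Oa UMI was found in any tumor, which allows a level of up to 0.0458 per 10000 over the 654719 UMIs of this gate, for counting error only (3 counts). H2-Ob, the β chain, was highest in B cells, at 1.29, 0.815, 2.08 and 1.76, whose range overlapped with that of cDC2 at 0.817 ± 0.125. The range of cDC2 in turn overlapped with that of cDC1 at 0.750 ± 0.0784. In pDC it was at 0.0305, 0.0401, 0 and 0.257, and NK cells ranged from 0.0214 to 0.0511.

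Ratios between the genes, which do not depend on the total RNA of a cell, differed between gates. In mature DC the ratio of H2-Ab1 to H2-Aa UMIs was 0.598, 0.584, 0.605 and 0.526, and in pDC 0.747, 0.820, 0.785 and 0.754. In cDC2, cDC1, monocytes and C1q macrophages the lowest tumor was at 1.04 and the highest at 1.39, so neither gate overlapped with these. B cells ranged from 0.789 to 1.67, and the 0.789 of the tumor that held 123 of them lay within the range of pDC. Stromal or tumor cells, with few UMIs of these genes, ranged from 0.564 to 1.39. Cd74 relative to H2-Aa was at 1.50 to 1.63 in mature DC, against 1.96 to 2.22 in cDC2 and 2.12 to 2.33 in cDC1, and at 1.29 to 3.87 in stromal or tumor cells, which overlapped with all of these. The ratio of H2-Eb1 to H2-Aa in mature DC, at 0.921 to 1.21, overlapped with that of cDC2 (0.844 to 1.12), while in pDC it was 0.556 to 0.730.

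H2-DMa relative to H2-Aa was at 0.0427, 0.0397, 0.0413 and 0.0400 in mature DC, below the 0.129 to 0.137 of cDC2 and the 0.101 to 0.127 of cDC1. In pDC it was at 0.254 to 0.453. For H2-DMb2 relative to H2-DMb1, mature DC were at 1.86, 1.45, 2 and 1.90, cDC2 at 0.388 to 0.517 and cDC1 at 0.124 to 0.174. This ratio was thus higher in mature DC than in both cDC gates without overlap. Kept B cells, at 0 to 2, overlapped with mature DC. B cell-gated barcodes that were not kept held 109, 119, 42 and 2560 UMIs of H2-DMb2 and 35, 98, 15 and 982 of H2-DMb1. The same reservation on split reads applies to these values. H2-Oa relative to H2-DMa was at 0.223 to 0.352 in pDC and 0.199 to 0.301 in mature DC, with overlap, against 0.0719 to 0.141 in cDC2. In the 3 tumors with an H2-DMa UMI in B cells it was 0.125 to 0.389 there, which overlapped with both. Ciita relative to H2-Aa was at 0.0132 to 0.0242 in mature DC and 0.0418 to 0.0589 in cDC2. C1q macrophages (0.0137 to 0.0306), Arg1 macrophages (0.0157 to 0.0328) and pDC (0.0172 to 0.0329) overlapped with mature DC in this ratio.

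**Figure D2:**
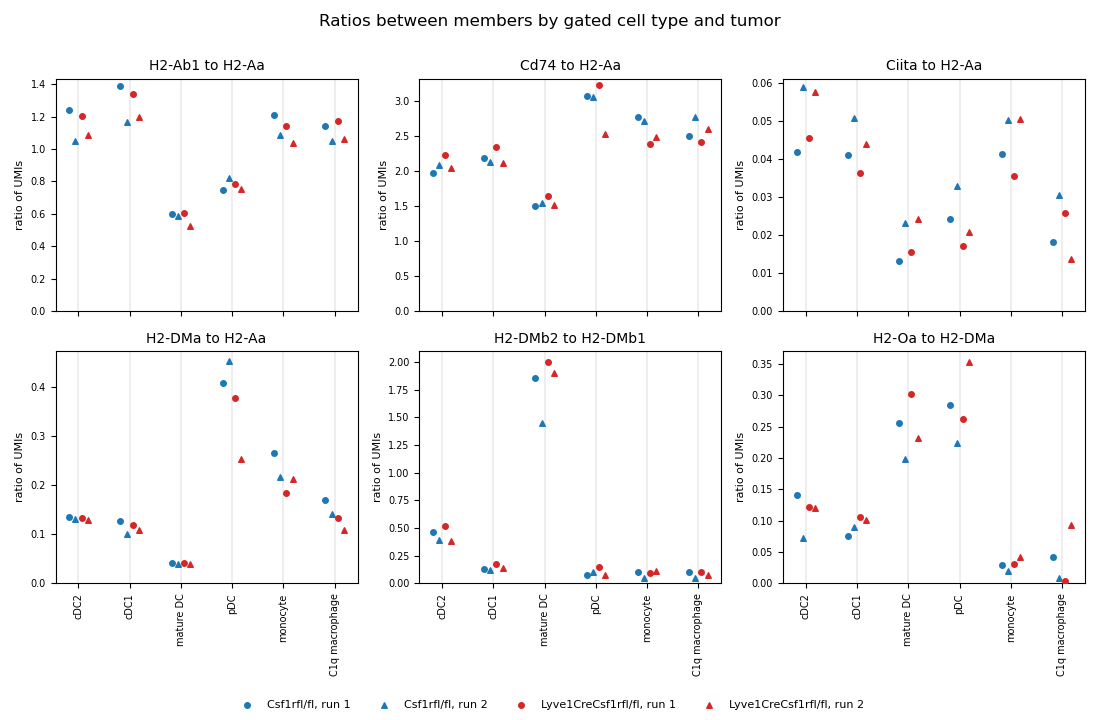
Ratios of UMIs between pairs of the genes on the y axis, by gate on the x axis, for the 4 tumors (blue Csf1rfl/fl, red Lyve1CreCsf1rfl/fl, circles run 1, triangles run 2). Mature DC lie below the other 5 gates shown for H2-Ab1, Cd74 and H2-DMa relative to H2-Aa and above them for H2-DMb2 relative to H2-DMb1.

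To compare single cells at an equal depth, each cell was thinned to 2000 UMIs, and cells with fewer UMIs were left out. Cd74 was then found in 100% of cDC1 (402 cells, exact 95% binomial interval 99.1% to 100%), 99.0% of cDC2, 95.2% of mature DC, 83.1% of pDC, 80.0% of C1q macrophages and 71.7% of monocytes, as means over the tumors. Without thinning, the shares in cDC2, mature DC and monocytes were 99.3%, 97.1% and 81.5%. Ciita was found in 39.9% of cDC2, 34.0% of cDC1, 9.77% of mature DC and 9.50% of monocytes, and in 74.3%, 78.8%, 18.1% and 20.1% without thinning. For Ciita in cDC2 the tumors were at 25.0%, 47.0%, 44.8% and 42.9%. The interval covers counting error only.

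RNA released from broken cells, or a doublet, can give UMIs of these genes in cells that do not make them. The NK cell gate, with 8.69% of its cells called doublets, is given beside the others for this background. The parts of released RNA and of doublets were not tested. Stromal and tumor cells can make class II when exposed to interferon-γ, so their gate is given as a value only. Thinned to 2000 UMIs, Cd74 was found in 16.4% of NK cells and in 6.59% of stromal or tumor cells, and in 27.0% and 57.8% without thinning. Neutrophils were at 34.5%, although they were left with 3432 of 6221 cells at this depth. Median depths were 4090 UMIs in NK cells, 2140 in neutrophils and 48761.5 in stromal or tumor cells. For Ciita, T cells were at 1.46% and neutrophils at 2.12%, and the range of each overlapped with that of NK cells at 0.751%. The Ciita levels of all cells without thinning did not overlap, at 0.0815 to 0.144 UMIs per 10000 in T cells and 0.136 to 0.194 in neutrophils against 0.0353 to 0.0763 in NK cells.

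Regulatory T cells stood apart from CD8 T cells in Cd74, while their ranges overlapped in H2-Aa. Cd74 was found in 60.8%, 63.8%, 62.5% and 56.6% of the thinned regulatory T cells and in 22.8%, 26.4%, 20.8% and 27.3% of the CD8 T cells. H2-Aa was found in 12.9%, 16.5%, 8.44% and 13.95% of regulatory T cells and in 10.7%, 9.53%, 7.27% and 14.4% of CD8 T cells, where the ranges overlapped. The level of Cd74 relative to H2-Aa was 3.15 to 3.96 in regulatory T cells and 2.17 to 2.73 in CD8 T cells, without overlap. The 8 B cell markers summed to 1.60 to 3.25 UMIs per 10000 in regulatory T cells and 0.294 to 1.57 in CD8 T cells, and the cDC1 markers, 2 of which were at 0 in regulatory T cells, to 1.11 to 2.11 against 0.266 to 0.416. The part of these markers and of released RNA in the values was not tested. The median depths were 3629.5 UMIs in regulatory and 4993 in CD8 T cells.

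**Figure D3:**
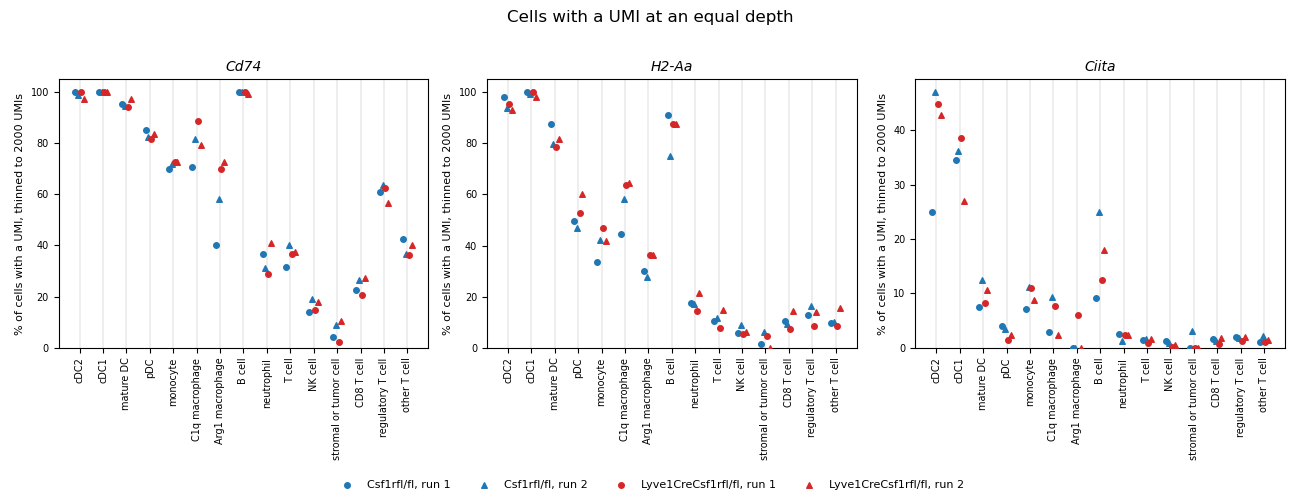
Share of cells with at least 1 UMI of Cd74, H2-Aa and Ciita after thinning each cell to 2000 UMIs (y axis, percent of cells), by gate (x axis), for the 4 tumors (blue Csf1rfl/fl, red Lyve1CreCsf1rfl/fl, circles run 1, triangles run 2). Regulatory T cells stand above CD8 T cells for Cd74, and their ranges overlap for H2-Aa.

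Within monocytes Cd74 varied with Ly6c2, and several of the genes varied with the cDC2 markers. Monocytes were split by their Ly6c2 UMIs, a marker of classical monocytes, after thinning. Cd74 was at 51.4 UMIs per 10000 in monocytes without a Ly6c2 UMI (629 cells), 39.5 with 1 to 2, 32.5 with 3 to 5 and 33.8 with 6 or more (2074 cells). It was lower in the highest than in the lowest of these classes in all 4 tumors, at 44.4, 46.8, 69.5 and 44.9 without Ly6c2 against 23.7, 38.9, 39.4 and 33.3 with 6 or more UMIs. In C1q macrophages the order of Cd74 was the opposite, with 28.8 in cells without a Ly6c2 UMI and 58.3 in the 71 cells with 6 or more. Again this held in all 4 tumors, although 1 tumor had only 6 such cells. H2-DMa did not share these orders throughout. Its means in C1q macrophages were 1.68 and 1.14 in the same classes. In monocytes of the Lyve1CreCsf1rfl/fl tumor of run 2 it was at 2.97 and 3.05. Ly6c2 and the cDC2 markers used next also served to place cells in gates.

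Cells were also split by the number of the 8 cDC2 markers with a UMI. Monocytes with 0, 1 and 2 or more such markers (2505, 2794 and 440 cells) had Cd74 at 26.1, 39.9 and 75.5 and H2-Ab1 at 10.5, 17.0 and 36.6, higher in each next class in all 4 tumors. Ciita was at 0.461, 0.582 and 1.47 and H2-DMb1 at 1.62, 2.23 and 4.61. For Ciita the middle class was below the first in the Csf1rfl/fl tumor of run 1, at 0.346 against 0.375. Monocytes without any cDC2 marker had Cd74 at 22.1 to 34.3, against 2.08 to 3.82 in all NK cells without thinning. In C1q macrophages Cd74 was at 30.8, 44.2 and 60.1 in the same classes (670, 358 and 46 cells), but in the Csf1rfl/fl tumor of run 2 the middle class was below the first. Whether cells with cDC2 markers were doublets, dendritic cells or monocytes was not tested.

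**Figure D4:**
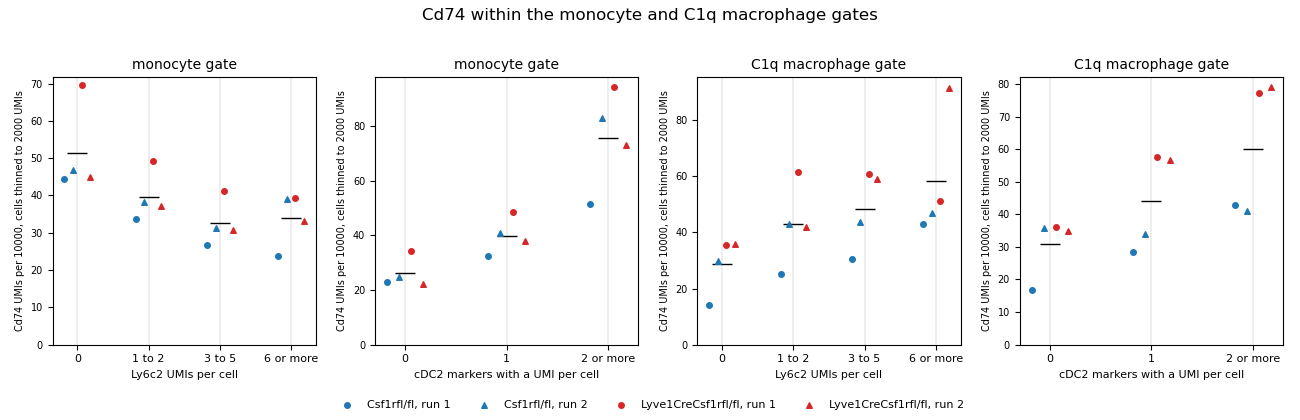
Cd74 level (y axis, UMIs per 10000 in cells thinned to 2000 UMIs) in classes of monocytes and C1q macrophages by Ly6c2 UMIs or by the number of cDC2 markers with a UMI (x axis), for the 4 tumors (blue Csf1rfl/fl, red Lyve1CreCsf1rfl/fl, circles run 1, triangles run 2), with bars at the means. From the lowest to the highest class of Ly6c2, mean Cd74 was 51.4 and 33.8 in monocytes and 28.8 and 58.3 in C1q macrophages.

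The study was designed to compare tumors with and without Csf1r deletion in LYVE-1+ cells. UMIs were summed per tumor within each gate and compared between 2 tumors per genotype by the quasi-likelihood test of edgeR. Its p-values were adjusted by the Benjamini-Hochberg method over all genes of the gate, and at this size the smallest two-sided p of an exact permutation would be 0.333. In 16 fits, which covered the 11 gates with at least 20 cells in every tumor, the 3 classes of T cells, all monocytes and macrophages together, and both cDC gates together, 147 tests of the 10 genes were made. None passed an adjusted p of 0.05, 16 had an unadjusted p under 0.05, against 1.92% of all gene tests in the same fits, and DESeq2 also called 0. Some of these fits share cells. Over all genes, the share called was 0% in each fit other than cDC1 (0.0272%), both cDC together (0.0119%) and stromal or tumor cells (0.0106%).

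In C1q macrophages H2-Aa, H2-Ab1, H2-Eb1 and Cd74 were higher in the Lyve1CreCsf1rfl/fl tumors in both runs without passing the test. H2-Ab1 was at 1073 and 1269 CPM in the Csf1rfl/fl tumors and 2730 and 1657 CPM in the Lyve1CreCsf1rfl/fl tumors of runs 1 and 2. The groups did not overlap, and the log2 fold change was 0.91 ± 0.31 (SE, edgeR adjusted p = 0.9999). H2-Aa (0.86 ± 0.30), H2-Eb1 (0.90 ± 0.31) and Cd74 (0.76 ± 0.32) had log2 fold changes of like size, also with an adjusted p of 0.9999 in edgeR. Of the 9 genes tested in this gate 4 had an unadjusted p under 0.05, against 3.09% of all genes tested. The log2 ratio of H2-Ab1 was 1.35 in run 1 and 0.38 in run 2, so the size differed between the runs. Ciita was at 16.9 and 37.1 CPM in Csf1rfl/fl and 59.9 and 21.3 CPM in Lyve1CreCsf1rfl/fl, where the groups overlapped and the runs went opposite ways.

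Other measures of the C1q macrophage gate moved between the tumors as well. The Csf1rfl/fl tumor of run 1 held 655 of its 1190 cells, and the Lyve1CreCsf1rfl/fl tumors held 140 and 93. All 8 neutrophil markers were found in it, at a summed level of 83.6 and 38.5 UMIs per 10000 in Csf1rfl/fl and 59.1 and 4.54 in Lyve1CreCsf1rfl/fl. The 8 cDC2 markers summed to 2.63 and 3.005 in Csf1rfl/fl and 4.61 and 3.08 in Lyve1CreCsf1rfl/fl. The mature DC markers summed to 0.849 and 0.673 against 1.09 and 1.66, and the Arg1 macrophage markers to 6.21 and 5.15 against 6.79 and 10.55, so these lists too were higher in Lyve1CreCsf1rfl/fl without overlap. Scrublet called 34.5%, 18.2%, 22.1% and 9.68% of the cells of the 4 tumors doublets. Median depths of this gate were 6816 and 6677 UMIs in Csf1rfl/fl and 4128 and 5115 in Lyve1CreCsf1rfl/fl, without overlap. Among C1q macrophages without a cDC2 marker, thinned, Cd74 was at 16.7 in the Csf1rfl/fl tumor of run 1 and at 35.8, 36.1 and 34.8 in the other tumors, so the Lyve1CreCsf1rfl/fl tumor was above its control in run 1 and not in run 2. H2-Ab1 had the same order, at 7.35 and 13.5 in Csf1rfl/fl and 16.5 and 13.3 in Lyve1CreCsf1rfl/fl. H2-Aa (6.82 and 12.7 against 13.2 and 13.6) and H2-Eb1 (6.86 and 11.25 against 15.3 and 13.1) were higher in Lyve1CreCsf1rfl/fl in both runs. The part of these measures in the result was not tested.

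In monocytes the 4 most abundant genes went opposite ways in the runs. H2-Aa was at 1089 and 1352 CPM in Csf1rfl/fl and 1974 and 1258 CPM in Lyve1CreCsf1rfl/fl, with a log2 ratio of 0.86 in run 1 and -0.10 in run 2. H2-Ob was higher in both runs, at 6.63 and 6.75 CPM in Csf1rfl/fl and 12.7 and 13.97 in Lyve1CreCsf1rfl/fl (log2 fold change 0.99 ± 0.23, edgeR adjusted p = 0.9999). H2-Oa was at 8.70 and 5.92 against 11.3 and 11.4 CPM (log2 fold change 0.63 ± 0.26, edgeR adjusted p = 0.9999). Of the 10 genes 2 had an unadjusted p under 0.05, against 1.34% of all genes. The 8 B cell markers summed to 0.499 and 0.669 UMIs per 10000 of the monocyte gate in Csf1rfl/fl and 0.469 and 1.58 in Lyve1CreCsf1rfl/fl, so they were raised in the tumor of run 2 that held most B cells. The mature DC markers summed to 0.528 and 0.573 in Csf1rfl/fl and 0.922 and 0.712 in Lyve1CreCsf1rfl/fl, without overlap, and mature DC held more H2-Ob (0.289 against 0.101 UMIs per 10000) and H2-Oa (0.373 against 0.0932) than monocytes. The part of both lists in these differences was not tested. When the fit of all monocytes and macrophages left out the Csf1rfl/fl tumor of run 2, Ciita (log2 fold change 0.88, adjusted p = 0.0352) and H2-Ob (1.02, adjusted p = 0.0427) passed the test of edgeR, as did 1.82% of all genes. The control group was then a single tumor, assumed to vary like the 2 Lyve1CreCsf1rfl/fl tumors, and neither gene passed with all 4 tumors.

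In regulatory T cells H2-Aa, H2-Ab1, H2-Eb1 and Cd74 were lower in Lyve1CreCsf1rfl/fl in both runs, and the call depended on the fit. H2-Ab1 was at 599 and 322 CPM in Csf1rfl/fl and 271 and 297 in Lyve1CreCsf1rfl/fl, with a log2 fold change of -0.69 ± 0.30 (edgeR adjusted p = 1). Most of this came from run 1, with log2 ratios of -1.14 and -0.11. The fall in run 1 was not particular to regulatory T cells. The summed level of the same genes had log2 ratios of -0.63 and 0.80 in CD8 T cells (runs 1 and 2). In other T cells these were -0.65 and 0.73. With the run as a block, H2-Ab1 (log2 fold change -0.63), H2-Aa (-0.63), H2-Eb1 (-0.56) and Cd74 (-0.49) passed the test, with adjusted p of 8.23e-07, 2.02e-06, 7.32e-05 and 4.72e-07 in edgeR. With this block 1.41% of all genes passed, against 0% without it. Few degrees of freedom remain with the run in the model, so these p-values rest largely on a spread shared across genes. The SE of H2-Ab1 in the blocked fit was 0.11, although its log2 ratios were -1.14 and -0.11 in the runs. Under the 12 alternatives the log2 fold change ranged from -1.07 to -0.19 for H2-Ab1, -0.97 to -0.24 for H2-Aa, -1.08 to -0.02 for H2-Eb1 and -0.84 to -0.13 for Cd74. At an unadjusted p under 0.05 without the block were 2 of the 10 genes and 2.22% of all genes. The monocyte markers in this gate summed to 10.02 and 9.48 UMIs per 10000 in Csf1rfl/fl and 5.88 and 7.84 in Lyve1CreCsf1rfl/fl, and the C1q macrophage markers to 1.74 and 0.947 against 0.894 and 0.508, so both lists moved with the class II genes, and their part in the result was not tested.

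In cDC1 and cDC2 none of the 10 genes had an unadjusted p under 0.05 between the genotypes. In cDC2 the log2 fold changes of the 10 genes lay between -0.12 and 0.18, and in cDC1 between -0.18 and 0.41. Cd74 in cDC2 was at 0.04 ± 0.38 (SE), an error that leaves room for changes in either direction. This SE rests in part on a spread shared across genes. In mature DC 8 of the 10 genes had a log2 fold change below 0, with a median of -0.13, and with the run as a block H2-Eb1 (-0.25 ± 0.06, edgeR adjusted p = 0.0427) passed, as did 0.21% of all genes. The mature DC values of H2-Eb1 were 5174 and 3346 CPM in Csf1rfl/fl and 4422 and 2750 in Lyve1CreCsf1rfl/fl, so the groups overlapped and each Lyve1CreCsf1rfl/fl tumor was below the control of its run. Without the block the log2 fold change was -0.25 ± 0.36, and leaving out the Csf1rfl/fl tumor of run 1 turned it to 0.10, a fit that sets the control of run 2 alone against tumors of both runs. In the mature DC gate the monocyte markers summed to 9.02 and 8.73 UMIs per 10000 in Csf1rfl/fl and 7.73 and 7.26 in Lyve1CreCsf1rfl/fl, the Arg1 macrophage markers to 0.760 and 0.743 against 0.659 and 0.553, and the cDC1 markers to 0.378 and 0.347 against 0.316 and 0.255, with all 8 of each list found. These lists were lower in Lyve1CreCsf1rfl/fl without overlap. The share of Scrublet doublets was lower too, at 9.59% and 8.30% against 7.84% and 6.91%. Median depths also fell without overlap, at 5043 and 4726 against 4311.5 and 4684.5 UMIs. The part of these measures in the result was not tested. In NK cells H2-DMb1 (log2 fold change -1.07 ± 0.32) and H2-Ab1 (-0.67 ± 0.26) were below the controls in both runs with an adjusted p of 1 in edgeR. These 2 of 8 genes stood against 1.73% of all genes at an unadjusted p under 0.05. Without the cells called doublets, H2-Ab1 turned to 0.02 in this gate and H2-DMb1 was at -0.67. Under the 12 alternatives H2-DMb1 ranged from -1.28 to -0.35, the latter with all barcodes. The C1q macrophage markers of the NK cell gate summed to 0.855 and 0.895 UMIs per 10000 in Csf1rfl/fl and 0.300 and 0.270 in Lyve1CreCsf1rfl/fl, and the cDC2 markers to 0.501 and 0.460 against 0.309 and 0.362, with all 8 markers of each list found. Both lists moved with the class II genes, and their part in the result was not tested.

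**Figure D5:**
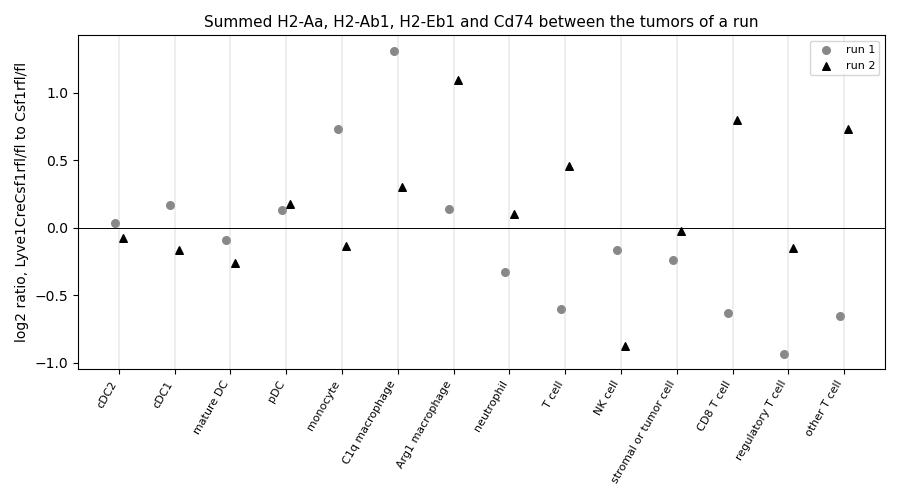
Log2 ratio of the summed level of H2-Aa, H2-Ab1, H2-Eb1 and Cd74 in the Lyve1CreCsf1rfl/fl tumor to that in the Csf1rfl/fl tumor of the same run (y axis), by gate (x axis), with gray circles for run 1 and black triangles for run 2. C1q macrophages, Arg1 macrophages and pDC lie above 0 in both runs, C1q macrophages at 1.31 and 0.30, and regulatory T cells below 0, at -0.94 and -0.15. Monocytes, CD8 T cells and other T cells lie on both sides.

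Genes that act with these 10 did not share a single order of gates. Of the 7 factors of the class II promoters, 3 (Rfx5, Rfxank and Nfya) were highest in mature DC, where Rfx5 was at 0.146 UMIs per 10000 and Nfya at 0.599. For all 7 the range of the highest gate overlapped with that of the next. Of 10 genes of the pathway that induces Ciita, Jak2 (3.89) and Socs1 (0.812) had their highest mean in mature DC, Irf8 in pDC (25.1), and Ifngr2 (0.960) and the myeloid factor Spi1 (5.79) in monocytes. Ifng itself was at 1.999 in NK cells and 1.97 in T cells.

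The 5 proteases listed for the class II pathway had their highest means outside the conventional and mature dendritic cells. The cathepsin S gene Ctss reached 19.9 in C1q macrophages, Lgmn, for legumain, 12.5 in the same gate, and Ctsl 11.2 in pDC, with overlap with stromal or tumor cells, and mature DC had the lowest mean of Ctsl among the gates, at 0.110. Ifi30, a lysosomal thiol reductase, was at 13.2 in cDC2 and 12.5 in mature DC. H2-Eb2, a neighbor of H2-Eb1, was at 1.54 in mature DC and 0.198 in cDC2, without overlap, an order unlike that of the classical chains. Cd83, which protects class II molecules and Cd86 from March1, was at 6.65 in mature DC and 1.30 in cDC2, while March1, the ubiquitin ligase that lowers surface class II, was highest in cDC1 at 1.29, with overlap with monocytes at 1.16. The costimulatory genes Cd40 (2.45), Cd80 (1.79) and Cd86 (2.94) were highest in mature DC without overlap. Between the genotypes, edgeR called 0 of the 494 tests of these 34 genes, 25 of which had an unadjusted p under 0.05, against the 1.92% of all gene tests given above, and DESeq2 called 0.

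Across 44 sums of 11 gates in 4 tumors, 5331 genes were ranked by their likeness to the mean log2 level of H2-Aa, H2-Ab1, H2-Eb1 and Cd74. The points share tumors, depth and gates, so the correlations are a description. Those most like it were Irf5 (r = 0.94), Cd86 (0.89), Rp2, Grk3, Prcp, Scand1, Cst3, Skap2, Pip4k2a and Htr7 (0.85). Among the members, H2-Aa, H2-Ab1 and H2-Eb1 correlated with Cd74 at 0.97 to 0.99, and H2-Oa with Cd74 at 0.61. The genes most like Ciita were Htr7 (0.93), Zfp366, Hfe, Ifi205 and Atox1 (0.87), and those most like H2-Oa were Kmo (0.89), Flt3, Syngr2, Haao and Cbfa2t3 (0.84). Ifi205, Kmo and Flt3 served as markers of the cDC2 gate, so their likeness is partly built in. With a pseudocount of 1, Spearman's rho or without the neutrophil, T, NK and stromal or tumor cell gates, 3, 2 and 1 of the 5 genes most like Ciita were shared with this list, and 1 of the 5 most like H2-Oa in each case.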

How the data were processed

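Single-cell RNA-seq libraries were made with the Chromium 3′ v2 chemistry from 2 pools of tumor CD45+ cells. Per the submitters' processing notes and the methods of the study, the authors aligned reads to mm10 with Cell Ranger 6.0.1 and deposited raw UMI counts per gene and barcode and raw counts of the hashtag antibodies. The annotation version is not given in the sources used here. The authors also deposited a table of corrected values from Seurat's SCTransform, treated here as a score and used only for the names of the cells they kept, which were singlets with under 5% mitochondrial reads after clusters specific to a single tumor were left out.

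Each cell was assigned to the tumor with the higher hashtag of its run, after a centered log ratio within the run. Each gate score was the mean over 8 markers of log2(1 + UMIs per 10000), divided by the marker's 0.9 quantile among positive cells and limited to 1. A cell took the gate with the highest score if this was at least 0.15 and led the next by at least 0.05. Doublets were called with Scrublet in scanpy 1.11.5 at an expected rate of 0.2 and kept in the main values. UMIs were summed per tumor and gate where each tumor had at least 20 cells, filtered with filterByExpr, scaled with TMM and tested with edgeR 4.0.16 in R 4.3.3, with an adjusted p threshold of 0.05. SEs of the edgeR log2 fold changes were derived from the F statistic of each test. They rest in part on a spread shared across genes. DESeq2 1.42.0 was an alternative. Nothing in the labels says how the mice were paired, but tumors of a run share a Chromium capture. The deviations of same-run tumors from their group means correlated at 0.12 to 0.40 over all genes tested in a gate and at 0.16 to 0.73 over genes whose log2 CPM averaged more than 5, and the run was used as a block in an alternative fit. The statistical code was tested on simulated data.

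Totals per tumor were 56715743, 40699576, 35778494 and 27686362 UMIs in the kept cells. Separate tumors were the replicates, with 2 per genotype. Intervals and limits cover counting error only. Other alternatives were a fit without TMM factors, no filter on low counts, each tumor left out, a stricter gate (lead of at least 0.15 and at least 3 markers detected), cells without doublets, a hashtag ratio of at least 3, all barcodes with a clear hashtag, means over cells, another thinning depth and other measures of likeness. The genes named are the 10 members, 34 genes in 4 fixed lists of the class II pathway, and the genes most like the members by Pearson's r of log2(UMIs per 10000 + 0.1). The members, gates and lists were chosen with earlier results of these data known.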

Additional observations from a re-analysis of the deposited data

Results flagged for a closer look

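The summed level of H2-Aa, H2-Ab1, H2-Eb1 and Cd74 in Lyve1CreCsf1rfl/fl relative to the Csf1rfl/fl tumor of the same run was above 0 on the log2 scale in both runs in C1q macrophages (1.31 and 0.30), Arg1 macrophages (0.14 and 1.09) and pDC (0.13 and 0.17), and below 0 in both runs in mature DC, NK cells, stromal or tumor cells and regulatory T cells. The mean log2 ratio of C1q macrophages exceeded that of mature DC by 0.98, that of NK cells by 1.33, that of stromal or tumor cells by 0.94 and that of regulatory T cells by 1.35. For Arg1 macrophages the differences from the same 4 groups were 0.79, 1.14, 0.75 and 1.16, and for pDC 0.33, 0.68, 0.29 and 0.70. These differences between cell groups were not tested, and each rests on 2 runs. The Arg1 macrophage gate held 27 to 59 cells in a tumor. In it the cDC2 markers, 1 of 8 at 0, summed to 1.48 and 1.07 UMIs per 10000 in Csf1rfl/fl and 2.10 and 3.05 in Lyve1CreCsf1rfl/fl, and the pDC markers, 4 of 8 at 0, to 0.198 and 0.604 against 0.741 and 1.73. In the pDC gate the B cell markers, 1 of 8 at 0, summed to 7.77 and 8.98 against 9.85 and 11.3. None of these overlapped between the groups, and their part in the differences was not tested.

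Barcodes that the authors did not keep were outside the main values above. They entered only the alternative with all barcodes that had a clear hashtag, and the values named above as theirs. In the Lyve1CreCsf1rfl/fl tumor of run 2, 3124 such barcodes fell in the B cell gate, with a median of 1992.5 UMIs, against 113 to 233 in each other tumor. Their Cd74 was at 66.4 and their H2-Ob at 3.72 UMIs per 10000. In the other tumors Cd74 of such barcodes was at 74.0 and 45.6 (Csf1rfl/fl) and 70.0 (Lyve1CreCsf1rfl/fl), and H2-Ob at 3.91, 1.93 and 3.47. The 123 B cells kept from the Lyve1CreCsf1rfl/fl tumor of run 2 had H2-Ob at 1.76.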

How the results depend on the processing

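Of the 147 tests of the 10 genes between genotypes, 0 were called. With the run as a replicate block 5 were called. These were H2-Aa, H2-Ab1, H2-Eb1 and Cd74 in regulatory T cells and H2-Eb1 in mature DC. The block changed no other call. Few degrees of freedom remain in the blocked fits, so their p-values rest largely on a spread shared across genes. Leaving out each tumor in turn gave 0 to 2 calls, the 2 being without the Csf1rfl/fl tumor of run 2, where the single control left was assumed to vary like the Lyve1CreCsf1rfl/fl tumors. The other alternatives gave 0 calls. The stricter gate left too few cells to fit cDC2, Arg1 macrophages and stromal or tumor cells. H2-Eb1 in mature DC turned from a log2 fold change of -0.25 to 0.10 without the Csf1rfl/fl tumor of run 1 and to 0.05 without the Lyve1CreCsf1rfl/fl tumor of run 2, fits without the block that leave the runs unequal between the groups, and leaving out each tumor in turn gave -0.63 to 0.10. H2-Ab1 in NK cells turned from -0.67 to 0.022 without doublets and to 0.14 with all barcodes, and H2-DMb1 there went from -1.07 to -0.67 and -0.35. The cause was not tested. In C1q macrophages the log2 fold changes of H2-Aa, H2-Ab1, H2-Eb1 and Cd74 stayed between 0.41 and 1.25 under the 12 alternatives.

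The share of cDC2 with a Ciita UMI was 39.9% at 2000 UMIs per cell, 22.0% at 1000 and 74.3% without thinning, so it depends on depth by construction. Of the 10 genes most like the class II chains and Cd74, 6 were shared with a pseudocount of 1, 5 with Spearman's rho and 2 without the neutrophil, T, NK and stromal or tumor cell gates. Of 595 alternative values of the members' levels, 481 moved by less than 1 SD of the tumors and 114 by more. H2-Oa was higher in pDC than in cDC2 without doublets and without the Csf1rfl/fl tumor of run 1. With 2 tumors per genotype, the number of tumors limits what could be detected.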
